A study of Mus musculus with 9 samples.

Results

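Long intergenic noncoding RNAs (lincRNAs) are transcripts longer than typical small RNAs that are made from their own loci, without a coding sequence. Their levels were compared here between lungs of unventilated control mice and lungs of mice after injurious mechanical ventilation. Members were the rows of the deposited transcript table whose Ensembl gene is typed lincRNA in GENCODE M21 (build GRCm38) and whose FPKM (fragments scaled to transcript length and library size) averaged at least 0.1 over the 9 libraries. These were 453 rows of 374 genes, out of 508 lincRNA rows and 60108 rows in all. The 55 lincRNA rows below the threshold include 20 listed at 0 in every library, and Mir22hg, Dleu2 and C430049B03Rik, which were to be left out, were not typed lincRNA. Just inside the threshold were Gm21814 (mean 0.103 FPKM) and Gm48007 (0.102), and just outside it were Gm44127 (0.0904) and row 1 of 5330413P13Rik (0.088).

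The study used male C57BL/6 mice of 6 to 8 weeks, with no transgene or deletion named. Ventilator-induced lung injury (VILI) was produced by 4 hours of mechanical ventilation at a tidal volume of 20 ml/kg under ketamine, xylazine and pancuronium, and lungs were taken directly afterwards (VILI 0 hours) or 6 hours later (VILI 6 hours). Control mice were intubated and not ventilated, so anaesthesia and time in the ventilated groups cannot be told apart from stretch. Each group had 3 libraries, each from whole lung, and the study sequenced 3 mice a group, so P-values measure the spread between these mice. The 7 alveolar type 2 cell markers summed to between 12660 and 15710 FPKM in every library. Summed neutrophil markers (8 of 8 found) were 48.9 to 57.1 FPKM before ventilation, 569 to 1042 directly after it and 469.9 to 2028 after 6 more hours, while those of fibroblasts (6 of 6 found) ran from 614.8 to 731.3, 523.6 to 621.6 and 496.5 to 668.7. B cell markers (5 of 5) summed to 44.5 to 59.8 FPKM in control and 12.5 to 37.5 in VILI 6 hours, without overlap, and to 19.1 to 60.7 in VILI 0 hours. At 0 hours the sums of alveolar macrophage markers (7 of 7; 415.4 to 485.6 against 285.5 to 359.7), of club and ciliated markers (5 of 5; 29260 to 31960 against 24440 to 26990) and of erythroid markers (5 of 5; 4915 to 5419 against 3225 to 4182) lay above all controls, and at 6 hours they overlapped them. The club and ciliated sum was mostly the secretory gene Scgb1a1 (28040 to 30540 FPKM at 0 hours against 23040 to 25510). Scgb3a2, Foxj1, Tppp3 and Cfap126 overlapped the controls. Of the macrophage markers, Chil3, Siglecf and Mrc1 lay above all controls at 0 hours and the others overlapped them. In whole tissue, fewer cells of a type and less RNA per cell cannot be told apart, and the part of these marker differences in the lincRNA values was not tested. VILI 6 hours replicate 1 stood apart, with an erythroid marker sum of 488.6 FPKM (3225 to 5419 in the other 8 libraries) and the lowest neutrophil sum of the ventilated libraries. VILI 0 hours replicate 3 had the highest cardiac muscle marker sum (7 of 7 found), 305.3 FPKM against 137.7 to 169.2 in the other 8. The counts are given with and without VILI 6 hours replicate 1, as are the 6-hour values of some rows in which it stood out.

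LincRNAs work in several ways. Malat1 and Neat1 stay in the nucleus, at splicing speckles and as the scaffold of paraspeckles; others host microRNAs or small nucleolar RNAs in their introns; and others act on a neighbouring gene through the act of transcription or by recruiting chromatin proteins. Many are made in few cell types and at a low level, so that their amount in a tissue moves with its cell makeup as well as with signalling. Here the median row had a mean of 0.715 FPKM (interquartile range 0.371 to 1.86), against 1.86 for protein-coding rows at the same threshold, on a scale that is per length of transcript. Of the 453 rows, 170 averaged 0.1 to 0.5 FPKM and 182 reached 1 FPKM, and 73 were listed at 0 in at least 1 library.

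Most loci, not all, were intergenic. Of the 374 genes, 55 overlapped a protein-coding gene of GENCODE M21, 21 of them on the same strand by the overlapping gene listed first. On the same strand, reads of the lincRNA and of unspliced coding RNA cannot be told apart. If the kit did not mark strands, that holds for all 55. Another 157 lay within 10 kb of a coding gene, 135 lay 10 to 100 kb away and 27 beyond that, with a median gap of 5714 bp. For 59 genes, a coding gene started head to head within 1000 bp. The loci had a median of 2 exons and 1420 spliced bases, and 48 had a single exon. RefSeq held 254 of the symbols, 238 of them as lncRNA and 12 as protein coding, among them Lsmem2 and Gm20939, which are described under the names the annotation gives them.

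RefSeq promoter windows (build GRCm38.p6, from 250 bases before to 50 after the listed start) were found for 207 of the 374 genes. Those of 4 lincRNAs that changed are shown because they hold a complete match to a short motif, in capitals, and cover both directions (the windows of Jpx, with an E-box, and Platr22, with the heat-shock pair, also hold one and are not printed): AP-1 (TGANTCA, bound by the stress-induced Fos and Jun proteins) in the first 3 and the E-box (CACGTG, bound by clock and Myc family proteins) in Gm39321.
E230001N04Rik, chr17:28522406-28522705 (plus strand): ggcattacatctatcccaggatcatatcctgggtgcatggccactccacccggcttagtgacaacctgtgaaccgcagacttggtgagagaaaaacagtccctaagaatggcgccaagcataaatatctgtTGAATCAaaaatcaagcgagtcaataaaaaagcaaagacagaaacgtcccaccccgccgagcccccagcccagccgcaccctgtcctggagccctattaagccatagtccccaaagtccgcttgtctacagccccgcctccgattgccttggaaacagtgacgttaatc
Mirt1, chr19:53464747-53465046 (minus strand): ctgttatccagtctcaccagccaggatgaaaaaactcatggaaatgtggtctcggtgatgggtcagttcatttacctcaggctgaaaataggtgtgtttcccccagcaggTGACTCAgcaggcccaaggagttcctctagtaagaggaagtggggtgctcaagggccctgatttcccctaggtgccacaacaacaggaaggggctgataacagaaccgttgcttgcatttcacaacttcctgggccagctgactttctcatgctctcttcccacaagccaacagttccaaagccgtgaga
Gm40639, chr10:45024150-45024449 (plus strand): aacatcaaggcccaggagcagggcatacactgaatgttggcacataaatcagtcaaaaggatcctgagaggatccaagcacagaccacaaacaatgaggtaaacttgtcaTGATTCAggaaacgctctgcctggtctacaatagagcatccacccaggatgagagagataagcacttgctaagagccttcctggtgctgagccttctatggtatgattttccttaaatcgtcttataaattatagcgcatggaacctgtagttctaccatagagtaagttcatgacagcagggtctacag
Gm39321, chr9:42141831-42142130 (plus strand): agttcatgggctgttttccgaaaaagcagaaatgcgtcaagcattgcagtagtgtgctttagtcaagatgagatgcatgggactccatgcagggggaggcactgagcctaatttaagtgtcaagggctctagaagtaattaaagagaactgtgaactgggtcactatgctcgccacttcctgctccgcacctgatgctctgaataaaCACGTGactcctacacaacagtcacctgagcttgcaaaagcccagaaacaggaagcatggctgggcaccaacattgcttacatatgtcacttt
The AP-1 motif stood in a window of 11.1% of the 207 lincRNA genes and of 8.97% of the 27025 genes with a window, and the E-box in 10.1% and 8.09%. Both motifs read the same on either strand, apart from the free base N, and neither overlaps the other. Other motifs searched on both strands were CRE (TGACGTCA, 3.38% of lincRNA genes and 2.03% of all), FoxO (TGTTTAC, 5.8% and 4.05%), the heat-shock pair (GAANNTTC, 7.73% and 9.04%), kappa B (3.38% and 5.14%), the glucocorticoid response element (0.483% and 0.259%) and the p53 half-site (9.18% and 9.55%). The windows of other lincRNAs that changed, among them Gm32200, Gm17501, Gm20939, D830026I12Rik and AU020206, held no complete match to any of these motifs. A match is a description of the letters and not a bound site. E230001N04Rik and Mirt1 rose and Gm40639 fell, so the same AP-1 letters stood before lincRNAs of either direction.

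RefSeq placed 17 microRNA hairpins inside 10 of the lincRNA genes, on the same strand. The mature products of 2 hosts described below, Mir142hg on chromosome 11 and H19 on chromosome 7, are shown with the seed (bases 2 to 8), the stretch that pairs with targets, in capitals.
miR-142a-5p: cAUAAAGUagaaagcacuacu
miR-142a-3p: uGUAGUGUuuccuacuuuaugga
miR-675-5p: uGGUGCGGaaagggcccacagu
miR-675-3p: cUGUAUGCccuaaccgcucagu
No seed is shared among these 4. FPKM of a host row counts the long transcript, not the mature microRNA.

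Most lincRNAs of 9 lists of mainly well-known noncoding RNAs did not pass the test. Of those that did, more were lower than higher after ventilation. The lists held 112 symbols, not all of noncoding RNAs and not all distinct genes, and 24 genes with 43 rows were members. A row passed, or was called, at an unadjusted P under 0.05 (limma on log2(FPKM + 0.1)), the threshold of the study. By it, 2 of the 43 rows were higher and 7 lower in VILI 0 hours than in control, where 4.71% of all 37300 rows tested were higher and 6.31% lower. In VILI 6 hours 2 were higher and 5 lower (5.73% and 7.51% of all rows), and between the 2 times 2 were higher and 3 lower at 6 hours (3.82% and 3.58% of all rows). With library medians set equal, which moves the median of all rows by 0.123 at 0 hours, 2 were higher and 4 lower at each time. The calls lost were those of row 2 of Malat1 at both times and of Neat1 and row 2 of Jpx at 0 hours. In a fit of only the libraries at issue, Malat1 and Neat1 at 0 hours were lost too, as were Mir142hg at 0 hours, row 2 of Snhg12 and Platr22 at 6 hours and row 3 of Gm14005 between the times. The median log2 fold change of the 43 rows was -0.20 at 0 hours and -0.29 at 6 hours, against -0.08 and -0.08 over all rows. AI504432, which the study picked for qRT-PCR among its differentially expressed transcripts, is in the lists and was among the lower rows at both times. These counts and medians are thus not independent of the study's choice. No row of these lists, and none of the 453, had an adjusted p under 0.05 in any comparison; over all rows that share was 0.0509% in VILI 0 hours, 0.0751% in VILI 6 hours and 0.0214% between the times. With 3 libraries on each side, 0.1 is the smallest two-sided p that exact permutation allows, so it can settle no single row.

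Among the nuclear architectural lincRNAs, Malat1 (chr19:5795690-5802672, minus strand) was among the most abundant transcripts of the table. Its row 2 had 4742, 4382 and 4482 FPKM in the control libraries, 4322, 3206 and 3894 in VILI 0 hours and 3525, 3888 and 3688 in VILI 6 hours. All 6 ventilated libraries lay below the 3 control libraries, and the log2 fold changes were -0.26 ± 0.11 (adjusted p = 0.417) and -0.29 ± 0.11 (adjusted p = 0.316). Neither call was firm: that at 0 hours was lost without control replicate 1, 2 or 3, or without VILI 0 hours replicate 2 or 3, or without VILI 6 hours replicate 2 or 3 (log2 -0.29 to -0.14), and that at 6 hours was lost without control replicate 1 or 3, or without VILI 6 hours replicate 1 or 3 (log2 -0.30 to -0.26). Row 1 of Malat1 is listed at 0 in control replicate 2 and VILI 0 hours replicate 2 and lies between 3268 and 4298 FPKM in the other 7 libraries, so a 0 there may be a failed estimate and no fold is given. With both rows summed, neither time passed: the log2 fold change of Malat1 was -0.29 (adjusted p = 0.746) at 0 hours and turned to 0.0829 (adjusted p = 0.916) at 6 hours.

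Neat1 (chr19:5824708-5845478, minus strand), the scaffold of paraspeckles, had 428, 431 and 349 FPKM in the control libraries, 172, 313 and 336 in VILI 0 hours and 351, 333 and 269 in VILI 6 hours. The VILI 0 hours libraries lay below all controls, mostly through replicate 1, whereas the VILI 6 hours libraries overlapped them. The log2 fold change was -0.61 ± 0.24 (adjusted p = 0.412) at 0 hours and -0.34 ± 0.24 (adjusted p = 0.565) at 6 hours, which did not pass. The call at 0 hours was lost without control replicate 1 or 2, or without VILI 0 hours replicate 1, or without VILI 6 hours replicate 2 (log2 -0.61 to -0.30). Pvt1, a long locus downstream of the growth regulator Myc, had 4 rows, all under a mean of 1 FPKM. Its row 4 had 0.963, 0.809 and 0.845 FPKM in the control libraries, 0.327, 0.438 and 0.418 in VILI 0 hours and 1.01, 0.785 and 1.12 in VILI 6 hours. It was low in every VILI 0 hours library and back near the controls at 6 hours, on both sides of their range. The log2 fold change was -0.98 ± 0.26 (adjusted p = 0.256) at 0 hours and 1.11 ± 0.26 (adjusted p = 0.424) from 0 to 6 hours, and P stayed under 0.05 with each of the 9 libraries left out. Rows 1 to 3 of Pvt1 passed the test in no comparison, and with the 4 rows summed neither call of Pvt1 was left, at -0.31 (adjusted p = 0.469) at 0 hours and 0.06 (adjusted p = 0.95) from 0 to 6 hours. Myc, 47612 bp away, had summed values of 2.55, 2.702 and 1.78 FPKM in the control libraries, 4.97, 3.41 and 2.18 in VILI 0 hours and 3.23, 6.201 and 11.01 in VILI 6 hours, above the controls in all 3 VILI 6 hours libraries and overlapping them at 0 hours.

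Of the lincRNAs named for smooth muscle and heart mesoderm, Carmn (chr18:61649625-61665537, minus strand), the host locus of microRNAs 143 and 145 and a marker of smooth muscle, had 24.6, 23.9 and 19.1 FPKM in the control libraries, 16.9, 14.1 and 15.5 in VILI 0 hours and 19.2, 19.3 and 11.9 in VILI 6 hours. The VILI 0 hours libraries lay below all controls and the VILI 6 hours libraries overlapped them slightly. The log2 fold change was -0.53 ± 0.20 (adjusted p = 0.392) at 0 hours and -0.45 ± 0.20 (adjusted p = 0.391) at 6 hours, where it did not pass. The call at 0 hours was lost without control replicate 1 or 2, or without VILI 0 hours replicate 2 or 3 (log2 -0.54 to -0.47). Its neighbour Bvht (Braveheart, a regulator of cardiac commitment, chr18:61639542-61647472, plus strand) did not follow it. Row 1 of Bvht had 9.48, 12.8 and 10.6 FPKM in the control libraries, 15.3, 12.5 and 12.8 in VILI 0 hours and 7.39, 10.1 and 10.02 in VILI 6 hours; each VILI 0 hours library was above each VILI 6 hours library, with a log2 fold change of -0.57 ± 0.17 (adjusted p = 0.547) between the times and no call against control. P of that difference stayed under 0.05 with each library left out.

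H19, the imprinted host of miR-675 whose sequences are given above, is chosen here after its values were seen, since its mean was below 1 FPKM. It had 0.569, 1.15 and 1.03 FPKM in the control libraries, 0.1901, 0.237 and 0.299 in VILI 0 hours and 0.3795, 0.141 and 0.1097 in VILI 6 hours. All 6 ventilated libraries lay below the 3 controls, and the log2 fold change was -1.54 ± 0.42 (adjusted p = 0.272) at 0 hours and -1.76 ± 0.42 (adjusted p = 0.19) at 6 hours. P stayed under 0.05 with each library left out at both times, although the level is low in every group. The other rows of these lists below 1 FPKM numbered 11, with means from 0.235 to 0.838. Of these, Chaer1, a regulator of heart growth, was lower at 6 hours than in control and than at 0 hours, and Trp53cor1 (lincRNA-p21, a p53 target beside Cdkn1a) was lower at 6 than at 0 hours; it had 0.361, 0.469 and 0.647 FPKM in the control libraries, 0.864, 0.463 and 0.794 in VILI 0 hours and 0.243, 0.319 and 0.241 in VILI 6 hours, so the VILI 6 hours libraries lay below all others.

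Both Jpx and Ftx, regulators of X inactivation, were members. Row 2 of Jpx, an activator of Xist, had 1.56, 1.49 and 1.14 FPKM in the control libraries, 0.872, 0.7705 and 0.787 in VILI 0 hours and 1.21, 0.7805 and 0.654 in VILI 6 hours, with each VILI 0 hours library below each control and a log2 fold change of -0.70 ± 0.28 (adjusted p = 0.406). This call was lost without control replicate 1 or 2, or without VILI 0 hours replicate 1, 2 or 3 (log2 -0.75 to -0.62), and also with both rows of Jpx summed (-0.53, adjusted p = 0.386). Row 1 of Jpx and the 4 rows of Ftx passed the test in no comparison. Of 12 rows of 5 small nucleolar RNA hosts, only row 2 of Snhg12 passed, at 6 hours, with 0.43 ± 0.17 (adjusted p = 0.338), and this call was lost without control replicate 1 or 3, or without VILI 6 hours replicate 2 (log2 0.31 to 0.44). It had 2.84, 4.03 and 3.41 FPKM in the control libraries, 4.22, 3.57 and 4.097 in VILI 0 hours and 4.36, 4.98 and 4.52 in VILI 6 hours, and the other 3 rows of Snhg12 had log2 fold changes of -0.25, -0.05 and -0.39. The summed rows of Snhg12 did not pass (0.15).

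Of the 4 genes in the microRNA host list, Mirt1 and Mir142hg rose, beside the fall of Carmn. RefSeq placed no hairpin inside Mirt1, so of these only Mir142hg is a microRNA host that rose. Mirt1 (chr19:53443230-53464796, minus strand), named for its rise after myocardial infarction, had 1.11, 0.955 and 0.876 FPKM in the control libraries, 1.54, 1.46 and 1.88 in VILI 0 hours and 1.31, 1.699 and 1.98 in VILI 6 hours. All 6 ventilated libraries lay above the 3 controls, and the log2 fold change was 0.67 ± 0.23 (adjusted p = 0.357) at 0 hours and 0.69 ± 0.23 (adjusted p = 0.293) at 6 hours. The first call was lost without control replicate 3, or without VILI 0 hours replicate 3 (log2 0.57 to 0.60), and the second lost without control replicate 3, or without VILI 6 hours replicate 3 (log2 0.56 to 0.62). Mir142hg (chr11:87755577-87757270, plus strand), the host of the blood-cell microRNA 142 shown above, had 6.15, 4.56 and 3.5 FPKM in the control libraries, 6.98, 6.53 and 6.07 in VILI 0 hours and 4.92, 5.23 and 5.94 in VILI 6 hours. Only VILI 0 hours passed against control, at 0.49 ± 0.21 (adjusted p = 0.437), 1 of its libraries fell within the control range, and the call was lost without control replicate 2 or 3, or without VILI 0 hours replicate 1, 2 or 3, or without VILI 6 hours replicate 2 (log2 0.29 to 0.54). Mir17hg, the host of the growth-linked miR-17 to miR-92 cluster, passed the test in no comparison.

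In the immune and myeloid list, AW112010, a transcript of activated macrophages and T cells, had 30.02, 29.04 and 32.3 FPKM in the control libraries, 21.6, 29.8 and 27.8 in VILI 0 hours and 25.2, 16.1 and 97.5 in VILI 6 hours. VILI 6 hours replicate 3 was far above all other libraries and the other 2 of its group lay below the controls, so the comparison did not pass, at a log2 fold change of 0.16 ± 0.56 (adjusted p = 0.922). Ptgs2os2, beside the cyclooxygenase gene Ptgs2, had 1.43, 2.05 and 1.37 FPKM in the control libraries, 1.48, 1.34 and 1.13 in VILI 0 hours and 1.38, 0.745 and 1.68 in VILI 6 hours and did not pass either. Row 3 of Gm14005 (Morrbid, which lies beside the cell death gene Bcl2l11 and is used by short-lived myeloid cells) had 1.12, 1.24 and 1.28 FPKM in the control libraries, 0.157, 1.53 and 0.1498 in VILI 0 hours and 1.44, 2.14 and 1.404 in VILI 6 hours. The low values of VILI 0 hours replicates 1 and 3 gave a rise of 1.88 ± 0.67 (adjusted p = 0.614) from 0 to 6 hours, with no call against control. The call was lost without VILI 0 hours replicate 1 or 3, or without VILI 6 hours replicate 2 (log2 1.42 to 1.69). Rows 1 and 2 of Gm14005 had 1.94, 3.97 and 3.28 FPKM in the control libraries, 4.804, 5.04 and 1.596 in VILI 0 hours and 4.12, 3.71 and 5.44 in VILI 6 hours, and 2.53, 1.28 and 1.95 FPKM in the control libraries, 1.43, 0.967 and 1.52 in VILI 0 hours and 2.11, 0.433 and 1.18 in VILI 6 hours. Neither passed between the times, and with the 3 rows summed the change was 0.42 (adjusted p = 0.645) and did not pass. The p53 and damage lincRNA Lncpint had 11.4, 10.8 and 10.8 FPKM in the control libraries, 7.97, 10.01 and 8.63 in VILI 0 hours and 9.49, 11.1 and 12.6 in VILI 6 hours in row 1 and passed in no comparison.

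AI504432, Gm37494 and 4833403J16Rik had been measured by the study with qRT-PCR, so they are not independent of its choice of transcripts. AI504432 (chr3:107039504-107054347, plus strand, 1434 bp from the potassium channel gene Kcna3) had 8.99, 9.33 and 9.02 FPKM in the control libraries, 4.16, 5.81 and 4.69 in VILI 0 hours and 7.31, 3.86 and 3.14 in VILI 6 hours. All 6 ventilated libraries lay below the controls, VILI 6 hours replicate 1 nearest to them. The log2 fold changes were -0.90 ± 0.29 (adjusted p = 0.33) and -1.01 ± 0.29 (adjusted p = 0.246), the latter -1.36 without VILI 6 hours replicate 1. Gm37494 had 10.1, 11.5 and 11.4 FPKM in the control libraries, 7.83, 8.98 and 8.81 in VILI 0 hours and 8.58, 6.56 and 5.88 in VILI 6 hours, again without overlap, and a log2 fold change of -0.66 ± 0.16 (adjusted p = 0.19) at 6 hours. 4833403J16Rik, 1128 bp from the lymphocyte gene Gimap5, had 7.85, 8.23 and 8.96 FPKM in the control libraries, 6.42, 5.63 and 7.28 in VILI 0 hours and 6.05, 5.38 and 5.78 in VILI 6 hours, with -0.37 ± 0.14 (adjusted p = 0.376) and -0.53 ± 0.14 (adjusted p = 0.215). P stayed under 0.05 with each library left out for AI504432 at both times and for the other 2 at 6 hours, while the call of 4833403J16Rik at 0 hours was lost without control replicate 2 or 3, or without VILI 0 hours replicate 2 (log2 -0.38 to -0.28).

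**Figure D1:**
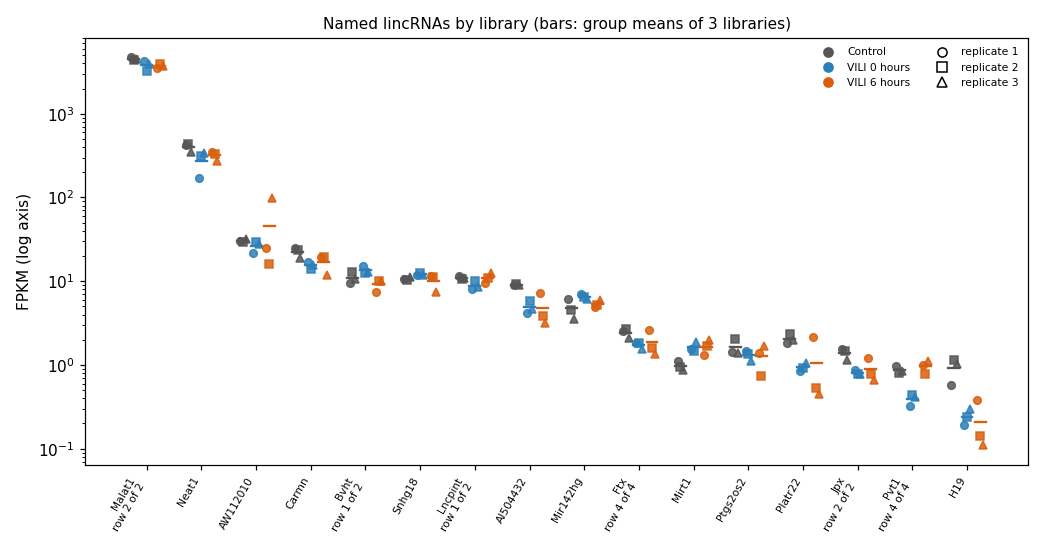
FPKM of 16 named lincRNA rows on a log axis, by library (grey control, blue VILI 0 hours, orange VILI 6 hours; marker shape gives the replicate number, bars the mean of 3 libraries). Levels fall from Malat1 at the left, the highest, to H19 at the right; AI504432 and H19 lie lower in all 6 ventilated libraries, Mirt1 lies higher, and AW112010 is high in VILI 6 hours replicate 3 alone.

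By level, the lincRNA signal was concentrated in 2 genes. Gm26917 (chr17:39843013-39846341, plus strand) and Malat1 together held 87.8% to 92.7% of the summed lincRNA FPKM of a library. Gm26917 had 5374, 5614 and 5455 FPKM in the control libraries, 5315, 6268 and 5461 in VILI 0 hours and 8294, 5627 and 4878 in VILI 6 hours; VILI 6 hours replicate 1 was the highest, and it passed in no comparison. The locus lies in the stretch of chromosome 17 where the mouse assembly carries a copy of the ribosomal RNA precursor, and how many of its reads came from ribosomal RNA left in the libraries was not tested. AU020206 (chr7:75769038-75782099, minus strand), the fifth row by level, had 56.9, 58.5 and 61.2 FPKM in the control libraries, 66.8, 61.8 and 49.5 in VILI 0 hours and 30.2, 43.4 and 43.7 in VILI 6 hours. Its 3 VILI 6 hours libraries lay below the other 6, at log2 fold changes of -0.61 ± 0.17 (adjusted p = 0.232) against control and -0.61 ± 0.17 (adjusted p = 0.497) against VILI 0 hours, both with P under 0.05 with each library left out, while the VILI 0 hours libraries overlapped the controls and did not pass.

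Over all 453 rows, more lincRNAs were lower than higher at 6 hours under either scaling of the libraries, whereas the split at 0 hours turned with the scaling. In VILI 0 hours, 22 rows were higher and 36 lower than in control (4.86% and 7.95%, against 4.71% and 6.31% of all rows, so the shares lay near those of the whole table). In VILI 6 hours, 14 were higher and 77 lower (3.09% and 17%, against 5.73% and 7.51%). Between the times, 8 were higher and 29 lower at 6 hours (1.77% and 6.40%, against 3.82% and 3.58%). The median log2 fold change was -0.15, -0.30 and -0.15 for the lincRNA rows in these 3 comparisons, and -0.08, -0.08 and -0.01 for all rows. Groups did not overlap for 39 rows that were higher and 101 that were lower at 0 hours (8.59% and 15.6% of all rows), for 21 and 93 at 6 hours (7.36% and 11.2% of all rows), and for 18 and 39 between the times (6.09% and 5.3% of all rows), which is 8.61% and 22.3%, 4.64% and 20.5%, and 3.97% and 8.61% of the lincRNA rows. With library medians set equal, the median of all rows moved by 0.123 at 0 hours, and the split became 32 higher and 26 lower at 0 hours (7.06% and 5.74%, against 7.48% and 4.11% of all rows) and 20 higher and 53 lower at 6 hours (4.42% and 11.7%, against 7.48% and 5.55%), with lincRNA medians of -0.03 and -0.21 beside 0.05 and 0.01 for all rows. Without the 24 rows of genes that overlap a coding gene on the same strand, 429 rows were left. Of these, 22 were higher and 31 lower at 0 hours, 14 and 73 at 6 hours, and 5 and 29 between the times. The fit was the same, so the shares of all rows stayed at 4.71% and 6.31%, 5.73% and 7.51%, and 3.82% and 3.58%.

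The counts depended on single libraries. Without VILI 6 hours replicate 1, 165 rows passed at 6 hours (35 higher, 130 lower), 88 at 0 hours (27 and 61) and 87 between the times (16 and 71), and 38 had an adjusted p under 0.05 at 6 hours. Calls over the whole table rose as well: at 6 hours 7.73% of lincRNA rows were higher and 28.7% lower, against 8.97% and 15.3% of all rows, and 8.39% against 5.6% had an adjusted p under 0.05. At 0 hours the shares were 5.96% and 13.5% against 6.02% and 8.48%, and between the times 3.53% and 15.7% against 5.97% and 8.31%. The total at 6 hours was 49, 51 and 47 without control replicates 1, 2 and 3, 54 without VILI 6 hours replicate 2 and 48 without replicate 3 (11 higher and 37 lower, 2.43% and 8.17%, against 4.5% and 4.93% of all rows). Without control replicates 1, 2 and 3, 1.32%, 2.43% and 1.32% of lincRNA rows were higher, against 4.58%, 4.27% and 4.16% of all rows. Lower were 9.49%, 8.83% and 9.05%, against 5.06%, 4.81% and 5.09%. Without VILI 6 hours replicate 2, 1.55% were higher and 10.4% lower, against 4.34% and 5.54%. At 0 hours, leaving out control replicate 2 gave a total of 35 and leaving out VILI 0 hours replicate 3, the library with the high cardiac muscle markers, gave 33. Without control replicate 2, 3.75% of lincRNA rows were higher and 3.97% lower, against 3.54% and 3.99% of all rows. Without VILI 0 hours replicate 3 it was 3.09% and 4.19%, against 3.66% and 4.53%. In neither fit did the share of lower lincRNA rows exceed that of all rows. Relative to the control mean, the median lincRNA row lay at -0.16, -0.13 and -0.20 (log2) in the VILI 0 hours libraries and at -0.12, -0.27 and -0.49 in those of VILI 6 hours, below the median of all rows in each of the 6 libraries (-0.08, -0.05, -0.08, 0.00, -0.07 and -0.15). VILI 6 hours replicate 3 thus carried the largest shift and replicate 1 the smallest. Of the 77 rows that were lower at 6 hours, replicate 1 was the highest of the 3 libraries in 51 (66.2%) and replicate 3 the lowest in 44 (57.1%), near the 63.6% and 55.8% among the 2803 lower rows of the whole table. Over all 453 lincRNA rows it was 50.1% and 42.2%, and over all 37300 rows 43.4% and 40%. These libraries also had the lowest and the highest neutrophil sums of the group, 469.9 and 2028 FPKM, and the part of cell makeup in the shift was not tested.

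**Figure D2:**
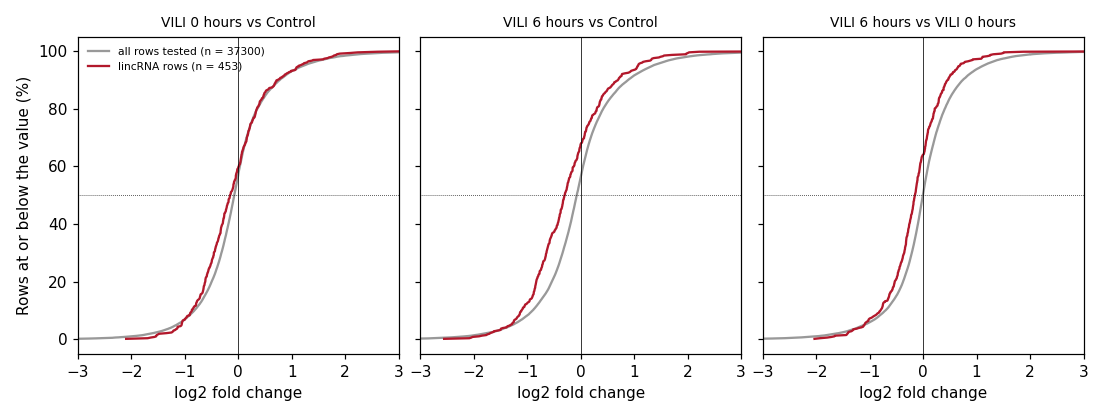
Cumulative share of rows (%) by log2 fold change in the 3 comparisons, for the 453 lincRNA rows (red) and all 37300 rows tested (grey); values beyond 3 either way are not drawn. The red curve runs to the left of the grey one at the median of each comparison, with the widest gap at 6 hours against control (-0.30 against -0.08).

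The excess of lower rows at 6 hours was present at each level of expression. Among rows of 0.1 to 0.5 FPKM, 11.8% of lincRNA rows were lower (4.68% of all rows in that range), at 0.5 to 1 FPKM 12.9% (6.89%), at 1 to 5 FPKM 23.7% (8.98%) and at 5 FPKM or more 25.6% (9.26%). At 0 hours the shares were 3.53%, 5.94%, 12.2% and 16.3%, against 4.32%, 6.79%, 8.27% and 6.13% of all rows. Other noncoding classes of the annotation were also lower at 6 hours than coding rows: 17% of lincRNA rows, 14.7% of processed-transcript rows, 16.1% of TEC rows (loci awaiting experimental proof) and 11.2% of antisense rows passed as lower, against 7.25% of protein-coding rows. Lower rows thus took a larger share in each of these noncoding classes than among coding rows. At 0 hours TEC rows differed most, with 38.8% lower against 7.95% of lincRNA rows, and the difference between classes was not tested.

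**Figure D3:**
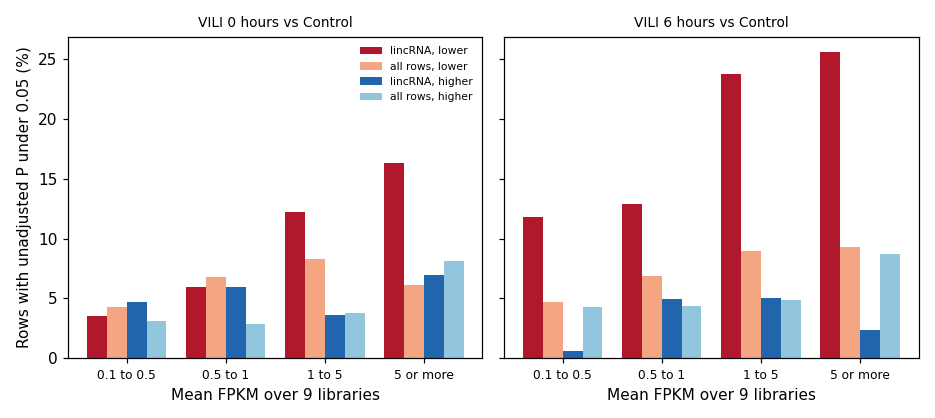
Percent of rows with an unadjusted P under 0.05 that were lower (reds) or higher (blues), for lincRNA rows and for all rows, by mean FPKM over the 9 libraries; bars start at 0. At 6 hours the lincRNA share of lower rows exceeds that of all rows at each level, from 11.8% against 4.68% to 25.6% against 9.26%.

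Across the comparisons, 138 rows passed in at least 1 (30.5%, against 22% of all rows) and 315 in none. Against control, 19 rows were lower at both times (4.19%, against 2.44% of all rows), 7 were higher at both (1.55% against 2.27%) and 0 went opposite ways (0.0322% of all rows); the times share the control libraries. At 6 hours, 12 rows were lower than both control and VILI 0 hours (2.65% against 1.49%), and 0 were higher than both (1.3% of all rows). Of 66 differences named by rule or in the text, 30 kept P under 0.05 with each of the 9 libraries left out in turn.

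The largest rises at 0 hours, among rows that passed without overlap of the groups and averaged at least 0.5 FPKM, were in little-studied lincRNAs, most of them under 1 FPKM in control lung. Gm11827 (chr4:11122805-11126998, plus strand) had 0.276, 0.278 and 0.185 FPKM in the control libraries, 3.45, 1.86 and 5.32 in VILI 0 hours and 0.362, 2.92 and 2.85 in VILI 6 hours. It was up in all 3 VILI 0 hours libraries and in VILI 6 hours replicates 2 and 3, and close to control in VILI 6 hours replicate 1. The log2 fold change was 3.29 ± 0.72 (adjusted p = 0.202) at 0 hours and 2.22 ± 0.72 (adjusted p = 0.28) at 6 hours. The call at 6 hours was lost without VILI 6 hours replicate 2 or 3 (log2 1.76 to 1.78), and without replicate 1 of that group the value was 3.12. E230001N04Rik (chr17:28522720-28525398, plus strand), whose promoter is shown above, had 0.351, 0.385 and 0.679 FPKM in the control libraries, 1.73, 4.95 and 4.09 in VILI 0 hours and 0.551, 3.995 and 3.77 in VILI 6 hours. The same VILI 6 hours library lay within the controls, and the log2 fold changes were 2.61 ± 0.73 (adjusted p = 0.273) and 1.97 ± 0.73 (adjusted p = 0.319); at 6 hours the call was lost without control replicate 1 or 2, or without VILI 6 hours replicate 2 or 3 (log2 1.52 to 1.88), and the value without replicate 1 of that group was 2.85. At 0 hours both kept P under 0.05 with each library left out.

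Of the other 3, only row 2 of Gm39321 also passed between the times, as lower at 6 hours. Row 2 of Gm39321, with the E-box window above, had 0.1703, 0.186 and 0.266 FPKM in the control libraries, 0.756, 1.47 and 2.102 in VILI 0 hours and 1.04, 0.4996 and 0.357 in VILI 6 hours. All ventilated libraries were above the controls, and the log2 fold change was 2.24 ± 0.46 (adjusted p = 0.188) at 0 hours, 1.15 ± 0.46 (adjusted p = 0.346) at 6 hours and -1.08 ± 0.46 (adjusted p = 0.668) between the times. At 0 hours it kept P under 0.05 with each library left out. The call at 6 hours was lost without control replicate 1 or 2, or without VILI 0 hours replicate 2, or without VILI 6 hours replicate 1 or 2 (log2 0.78 to 1.24). That between the times was lost without control replicate 1, 2 or 3, or without VILI 0 hours replicate 2 or 3, or without VILI 6 hours replicate 2 or 3 (log2 -1.08 to -0.77). Gm15729 had 0.164, 0.3897 and 0.146 FPKM in the control libraries, 0.555, 1.46 and 1.31 in VILI 0 hours and 0.521, 0.4801 and 0.663 in VILI 6 hours, also without overlap, and rose by 1.83 ± 0.43 (adjusted p = 0.229) at 0 hours. Gm7292 had 1.09, 4.52 and 6.19 FPKM in the control libraries, 9.16, 11.97 and 12.7 in VILI 0 hours and 2.75, 4.54 and 12.8 in VILI 6 hours. It rose at 0 hours by 1.79 ± 0.70 (adjusted p = 0.402) on the log2 scale, but control replicate 1 was well below the other controls, and 6 hours did not pass. The call was lost without control replicate 1, or without VILI 0 hours replicate 1, 2 or 3 (log2 1.06 to 1.93). Of these 5 largest rises, all but Gm7292 were under 1 FPKM in each control library.

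At 6 hours the 5 largest rises among rows whose groups did not overlap, which leaves out E230001N04Rik, included Gm11827 and row 2 of Gm39321 again, and the other 3 were Gm20186, 1200007C13Rik and Gm28875. Gm20186 (chr6:18845910-18848207, minus strand) had 7.598, 7.39 and 7.58 FPKM in the control libraries, 11.7, 9.16 and 11.9 in VILI 0 hours and 12.7, 17.3 and 135 in VILI 6 hours. All VILI 6 hours libraries were above the controls, but 1 library held most of the change: replicate 3 was far above the other 2, and the log2 fold change was 2.03 ± 0.75 (adjusted p = 0.324). The call was lost without control replicate 1, 2 or 3 (log2 2.01 to 2.03). Without VILI 6 hours replicate 3 the log2 fold change was 0.97, and the row passed. 1200007C13Rik (chr2:167827693-167833646, minus strand) had 0.684, 0.794 and 0.865 FPKM in the control libraries, 2.09, 0.811 and 3.07 in VILI 0 hours and 1.91, 3.995 and 5.21 in VILI 6 hours and rose by 2.004 ± 0.50 (log2, adjusted p = 0.207) at 6 hours without overlap. Gm28875 (chr12:104925501-104926689, minus strand, a single exon) had the smallest spread. It had 1.55, 2.05 and 1.66 FPKM in the control libraries, 2.85, 3.32 and 2.24 in VILI 0 hours and 3.59, 3.94 and 3.56 in VILI 6 hours, each VILI 6 hours library above each control and each VILI 0 hours library, at a log2 fold change from control of 0.64 ± 0.20 (adjusted p = 0.314) at 0 hours and 1.04 ± 0.20 (adjusted p = 0.134) at 6 hours. The latter adjusted p was the lowest of any lincRNA row at 6 hours, and with rows summed per gene it was 0.0466. P of 1200007C13Rik and Gm28875 stayed under 0.05 with each library left out.

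By that rule, the 5 largest falls at 0 hours left measurable levels in every library. Gm16386 had 2.37, 3.26 and 2.94 FPKM in the control libraries, 0.941, 1.54 and 1.27 in VILI 0 hours and 2.69, 1.36 and 1.33 in VILI 6 hours and changed by -1.15 ± 0.32 (adjusted p = 0.272); row 1 of AI838599 had 5.12, 5.81 and 5.12 FPKM in the control libraries, 2.84, 2.57 and 1.82 in VILI 0 hours and 4.24, 2.002 and 1.43 in VILI 6 hours and changed by -1.14 ± 0.36 (adjusted p = 0.327) and -1.18 ± 0.36 (adjusted p = 0.267). In both, VILI 6 hours replicate 1 was the ventilated library nearest to control, and without it the 6-hour value of AI838599 was -1.60, and that of Gm16386 went from -0.70, which did not pass, to -1.02, which did. The call of AI838599 at 0 hours was lost without VILI 0 hours replicate 3 (log2 -0.96), and that of Gm16386 was kept with each library left out. Gm32200 and Gm40639 showed the same order, with a log2 change of -1.25 ± 0.47 (adjusted p = 0.386) and -1.18 ± 0.45 (adjusted p = 0.387) at 0 hours and -1.50 ± 0.47 (adjusted p = 0.272) and -1.10 ± 0.45 (adjusted p = 0.351) at 6 hours. The call of Gm32200 at 0 hours was lost without control replicate 1, 2 or 3, or without VILI 0 hours replicate 1 or 3 (log2 -1.29 to -1.10), and its 6-hour value was -0.97 without VILI 6 hours replicate 3 and -1.97 without replicate 1. Without VILI 6 hours replicate 1, Gm40639 was at -1.55 at 6 hours. Its calls were lost without control replicate 1, 2 or 3, or without VILI 0 hours replicate 1 or 3 (log2 -1.21 to -0.97), and lost without control replicate 1, 2 or 3, or without VILI 0 hours replicate 1, or without VILI 6 hours replicate 2 or 3 (log2 -1.13 to -0.71). Row 2 of Dubr, a muscle differentiation lincRNA, was lower at 0 hours, at -1.14 ± 0.46 (adjusted p = 0.414), a call lost without control replicate 2 or 3, or without VILI 0 hours replicate 1 or 3 (log2 -1.23 to -0.86); with its rows summed Dubr was at -0.71 and passed. Outside these 5, Gm26601 had 2.73, 2.67 and 2.43 FPKM in the control libraries, 0.995, 1.24 and 1.401 in VILI 0 hours and 2.02, 1.64 and 1.62 in VILI 6 hours. All VILI 0 hours libraries lay below the controls, and the log2 fold change of -1.06 ± 0.20 (adjusted p = 0.162) had the lowest adjusted p of any lincRNA row at 0 hours. The VILI 6 hours values lay between, -0.55 ± 0.20 (adjusted p = 0.321) against control and 0.51 ± 0.20 (adjusted p = 0.651) against 0 hours. The call at 6 hours against control was lost without control replicate 1 or 2, or without VILI 6 hours replicate 2 or 3 (log2 -0.53 to -0.50). That between the times was lost without control replicate 1, 2 or 3, or without VILI 0 hours replicate 1 or 2, or without VILI 6 hours replicate 1 (log2 0.38 to 0.53).

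Of the 5 largest falls at 6 hours by the same rule, among rows whose groups did not overlap, row 1 of AI480526 (chr5:123133723-123141666, minus strand) had the highest level. It had 14.3, 14.5 and 12.2 FPKM in the control libraries, 5.74, 10.3 and 8.02 in VILI 0 hours and 9.65, 4.46 and 3.29 in VILI 6 hours. All ventilated libraries were below the controls, the log2 fold change was -1.37 ± 0.38 (adjusted p = 0.233), the value on leaving out VILI 6 hours replicate 1 was -1.80, and P stayed under 0.05 with each library left out. Gm20939 had 1.44, 1.51 and 1.43 FPKM in the control libraries, 0.743, 1.199 and 1.14 in VILI 0 hours and 1.196, 0.251 and 0.271 in VILI 6 hours; 2 of the 3 VILI 6 hours libraries were far below the rest and replicate 1 was not. Its log2 fold change was -1.50 ± 0.50 (adjusted p = 0.286), a call lost without VILI 6 hours replicate 2 or 3 (log2 -1.21 to -1.17). Without replicate 1 it was -2.11. Row 1 of Gm30648 and row 2 of 2310040G24Rik, with a log2 change of -2.05 ± 0.76 (adjusted p = 0.321) and -1.71 ± 0.69 (adjusted p = 0.346), each had at least 1 VILI 6 hours library under 0.1 FPKM, where log2(FPKM + 0.1) understates folds. The first call was lost without control replicate 1 or 2, or without VILI 6 hours replicate 1 or 3 (log2 -2.04 to -1.51), and the second lost without control replicate 1, 2 or 3, or without VILI 6 hours replicate 3 (log2 -1.84 to -0.88). Platr22, the only member of the pluripotency and brain list, had 1.85, 2.33 and 1.98 FPKM in the control libraries, 0.846, 0.911 and 1.05 in VILI 0 hours and 2.18, 0.5303 and 0.449 in VILI 6 hours; it was lower in 5 of 6 ventilated libraries and its call at 6 hours, -1.21 ± 0.50 (adjusted p = 0.355), was lost without control replicate 1, 2 or 3, or without VILI 0 hours replicate 1, 2 or 3, or without VILI 6 hours replicate 2 or 3 (log2 -1.28 to -0.84). Without VILI 6 hours replicate 1 it was -1.87 and passed.

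**Figure D4:**
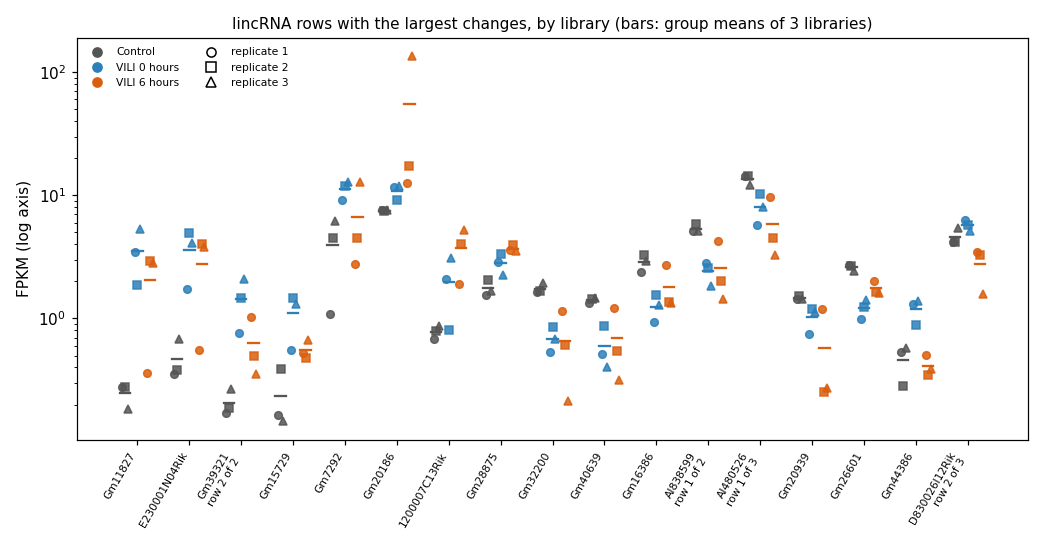
FPKM of 17 lincRNA rows with the largest changes on a log axis, by library (colours and shapes as for the named lincRNAs, bars the mean of 3 libraries). Gm11827 and E230001N04Rik rise in 5 of 6 ventilated libraries, the exception being VILI 6 hours replicate 1, Gm20186 is highest in VILI 6 hours replicate 3, and Gm28875 rises with little spread.

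Between 0 and 6 hours, some lincRNAs went from low back towards control and others from high to low. Gm38399 had 9.59, 8.397 and 4.46 FPKM in the control libraries, 3.505, 3.26 and 3.41 in VILI 0 hours and 10.2, 5.85 and 4.62 in VILI 6 hours; it was below all controls at 0 hours and above VILI 0 hours at 6 hours, with -1.05 ± 0.35 (adjusted p = 0.343) and 0.92 ± 0.35 (adjusted p = 0.633). The call at 0 hours was lost without control replicate 1 or 2 (log2 -0.93 to -0.83), and that between the times lost without VILI 0 hours replicate 1, 2 or 3, or without VILI 6 hours replicate 1 (log2 0.60 to 0.95). Gm26853 had 2.14, 2.71 and 2.15 FPKM in the control libraries, 1.64, 1.64 and 1.49 in VILI 0 hours and 2.25, 2.29 and 3.02 in VILI 6 hours, with -0.52 ± 0.20 (adjusted p = 0.391) and 0.62 ± 0.20 (adjusted p = 0.561). Its call at 0 hours was lost without control replicate 2, or without VILI 0 hours replicate 2 or 3 (log2 -0.54 to -0.41), and that between the times was kept. Gm20707 had 3.67, 3.71 and 3.399 FPKM in the control libraries, 1.96, 2.43 and 2.01 in VILI 0 hours and 2.89, 2.55 and 2.97 in VILI 6 hours, with -0.73 ± 0.16 (adjusted p = 0.203) and 0.38 ± 0.16 (adjusted p = 0.667), the first kept with each library left out and the second lost without control replicate 1, 2 or 3, or without VILI 0 hours replicate 1 or 3, or without VILI 6 hours replicate 1 or 3 (log2 0.33 to 0.38). In the other direction, Gm44386 had 0.5298, 0.285 and 0.572 FPKM in the control libraries, 1.31, 0.884 and 1.395 in VILI 0 hours and 0.503, 0.3497 and 0.386 in VILI 6 hours: it was up at 0 hours by 1.22 ± 0.33 (adjusted p = 0.262) and back within the control range at 6 hours, a change of -1.32 ± 0.33 (adjusted p = 0.462) between the times. Lsmem2, which RefSeq types as protein coding, had 0.831, 0.8896 and 0.923 FPKM in the control libraries, 1.34, 1.602 and 1.49 in VILI 0 hours and 0.981, 0.314 and 0.107 in VILI 6 hours and changed by -1.80 ± 0.53 (adjusted p = 0.531) between the times, or -2.43 without VILI 6 hours replicate 1. A630023P12Rik was lower too, at -1.34 ± 0.49 (adjusted p = 0.619), a call lost without VILI 0 hours replicate 1, or without VILI 6 hours replicate 1 or 3 (log2 -1.30 to -0.89). Gm26601, Gm20707 and Gm38399 each overlap a coding gene on the same strand (Dip2c, Zfp984 and Nav1).

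Values of the nearest coding gene, with its rows summed, were set beside those of the lincRNAs. Fkbp5, the stress- and glucocorticoid-induced chaperone 5193 bp from E230001N04Rik on the other strand, had 4.62, 4.43 and 3.53 FPKM in the control libraries, 86.3, 46.5 and 96.5 in VILI 0 hours and 6.73, 81.6 and 108 in VILI 6 hours. Trp53inp1, a p53-induced stress gene 29433 bp from Gm11827 on the same strand, had 29.6, 33.1 and 38.7 FPKM in the control libraries, 122, 62.7 and 109.8 in VILI 0 hours and 22.3, 80.7 and 103 in VILI 6 hours. In both pairs lincRNA and neighbour were high in the 3 VILI 0 hours libraries and in VILI 6 hours replicates 2 and 3, and low in the controls and VILI 6 hours replicate 1. Ptpn1, a phosphatase of insulin and cytokine signalling 98411 bp from 1200007C13Rik, had 18.8, 17.5 and 16.2 FPKM in the control libraries, 31.8, 26.98 and 25.4 in VILI 0 hours and 24.1, 34.8 and 48.6 in VILI 6 hours, highest where the lincRNA was highest. Nav1, the host of Gm38399, had 23.8, 21.9 and 17.1 FPKM in the control libraries, 13.9, 15.4 and 12.4 in VILI 0 hours and 23.4, 20.4 and 15.6 in VILI 6 hours; its log2 fold change was -0.58 (adjusted p = 0.161) at 0 hours and 0.49 (adjusted p = 0.412) from 0 to 6 hours, in the direction of the lincRNA each time. Cav2, a caveolar coat protein gene 71033 bp from D830026I12Rik, had 150.0, 168 and 211 FPKM in the control libraries, 187, 205 and 187 in VILI 0 hours and 132, 143 and 122 in VILI 6 hours, lowest at 6 hours like the lincRNA.

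Close neighbours could also part. Gm20186 starts head to head with the splicing gene Lsm8, 372 bp away, yet Lsm8 had 21.7, 20.3 and 25.2 FPKM in the control libraries, 17.6, 23.3 and 23.4 in VILI 0 hours and 18.9, 17.9 and 20.3 in VILI 6 hours, with no rise in the library where Gm20186 reached 135 FPKM. AI480526 starts 527 bp from the histone methyltransferase gene Setd1b, which passed at neither time (log2 fold changes -0.21 and -0.17). Gm17501 starts 331 bp from Ccn1, a stretch-responsive matrix gene, with 0.762, 0.698 and 1.12 FPKM in the control libraries, 1.26, 0.869 and 1.73 in VILI 0 hours and 0.642, 0.346 and 0.558 in VILI 6 hours; Ccn1 had 45.9, 35.2 and 39.03 FPKM in the control libraries, 46.1, 23.2 and 120.0 in VILI 0 hours and 51.6, 43.4 and 54.9 in VILI 6 hours and shared with it the high VILI 0 hours replicate 3, not the low values at 6 hours. Over the 374 genes, 334 had a tested neighbour. Of neighbours of lincRNAs lower at 6 hours, 15 of 66 had a positive log2 fold change (22.7%), against 156 of 334 (46.7%) for all lincRNA genes, with medians of -0.21 and -0.03. For lincRNAs higher at 6 hours it was 9 of 13 (69.2%). At 0 hours it was 14 of 20 (70%) for those higher and 8 of 26 (30.8%) for those lower, against 161 of 334 (48.2%). Between the times it was 2 of 7 (28.6%) for those higher and 9 of 26 (34.6%) for those lower, against 140 of 334 (41.9%). Pairs share libraries and often sequence context, and no test was run on these shares.

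**Figure D5:**
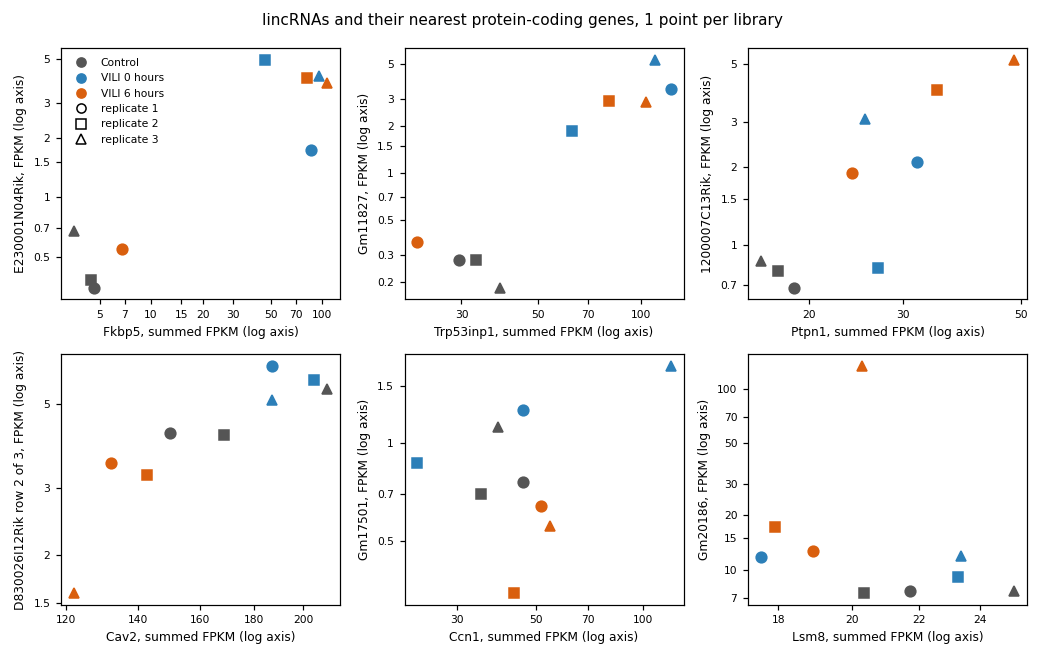
FPKM of 6 lincRNA rows (vertical, log axis) against summed FPKM of the nearest protein-coding gene (horizontal, log axis), 1 point per library (colours and shapes as before). E230001N04Rik with Fkbp5 and Gm11827 with Trp53inp1 split the libraries the same way, with VILI 6 hours replicate 1 near the controls, whereas Gm20186 reaches its highest value at a middling level of Lsm8.

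LincRNA genes lower at 6 hours had a median of 3 exons, a spliced length of 1633 bases, a gap of 6689 bp to the nearest coding gene and a mean level of 1.27 FPKM, against 2 exons, 1420 bases, 5714 bp and 0.73 FPKM for all 374. Genes higher at 6 hours had 2.5 exons, 1398 bases, a gap of 12160 bp and 1.3 FPKM, and genes lower at 0 hours had 3 exons, 2385 bases, 11850 bp and 1.86 FPKM, while those higher at 0 hours had 2 exons, 1257 bases, 8219 bp and 0.69 FPKM. Of those higher at 0 hours, 1 of 21 overlapped a coding gene and 0 of 21 started head to head with one, against 14.7% and 15.8% of all, which at this number is a description only.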

How the data were processed

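RNA of 9 whole lungs (3 control, 3 VILI 0 hours, 3 VILI 6 hours) was analysed, grouped by the treatment in the sample records. The deposited file gives FPKM for each transcript row. By the methods and the submitters' processing notes, reads were aligned to GRCm38 with TopHat2 2.0.9 and Bowtie2 2.0.6, transcripts were built by Scripture and by Cufflinks, and the authors took FPKM from Cuffdiff 2.1.1. The annotation release is not given in the sources used here. The records name a TruSeq kit, whereas the methods name rRNA depletion with a strand-marking kit. Whether RNA without a poly(A) tail entered, and whether reads kept their strand, is therefore not settled. The FPKM file carries no depth, the read totals the study lists were not used here, and precision comes from the spread of 3 libraries. An exact 0 can be a failed estimate.

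GENCODE M21 (GRCm38) gave types, names and positions: 23580 of 23713 Ensembl IDs matched. limma 3.58.1 (R 4.3.3; lmFit, eBayes with a trend) was fitted once over all 37300 rows with a mean FPKM of at least 0.1 on log2(FPKM + 0.1), a scale on which folds of low rows are understated, with group as the only factor, and p-values were adjusted (Benjamini-Hochberg) over all these rows. P is unadjusted, and ± is the standard error with 3 libraries a group. The fit was tested on simulated data of 37300 rows for VILI 6 hours against control: 64.2% of rows changed by a log2 of 1, 85.1% by 2 and 90.9% by 3 had P under 0.05, as did 5.08% of unchanged rows. Members and lists were chosen with earlier results of these data known. Named rows were the list members with a mean of at least 1 FPKM, the 5 highest rows, per comparison the 5 largest rises and 5 largest falls among rows with P under 0.05, a mean of at least 0.5 FPKM and no overlap of groups, and the study's qRT-PCR transcripts. Alternatives were each library left out, rows summed per gene, no trend, the replicate number as a block, a fit of only the 6 libraries at issue, centring on library medians, a higher filter (mean of 1) or none, and pseudocounts of 0.01 and 1. Counts without lincRNAs that overlap a coding gene on the same strand were added after seeing the data. Python 3.11.15, numpy 2.4.6, pandas 2.3.3 and matplotlib 3.10.9 were also used.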

Additional observations from a re-analysis of the deposited data

Results flagged for a closer look

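In 3 named lincRNA rows, every VILI 0 hours library lay on one side of the control mean and every VILI 6 hours library on the other: Gm17501, row 2 of D830026I12Rik and row 1 of Bvht were above it at 0 hours and below it at 6 hours. The log2 fold change from 0 to 6 hours, which is the test of this difference, was -1.16 for Gm17501 (limma, adjusted p = 0.543), -1.09 for row 2 of D830026I12Rik (adjusted p = 0.493) and -0.57 for row 1 of Bvht (adjusted p = 0.547), so none passed after adjustment. The control means were 0.86, 4.6 and 11.0 FPKM.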

How the results depend on the processing

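The counts of lincRNA rows with an unadjusted P under 0.05 (58 in VILI 0 hours against control, 91 in VILI 6 hours against control, 37 between the times) stayed within 1.5 times their value under most alternatives. They fell to 29, 47 and 18 when rows had to average 1 FPKM, where fewer rows are tested, and the first rose to 97 with only the 6 libraries compared. At 1 FPKM, 4.4% of lincRNA rows were higher and 11.5% lower at 0 hours, against 5.84% and 6.99% of all rows. At 6 hours it was 3.85% and 22% against 6.66% and 8.94%, and between the times 3.3% and 6.59% against 3.97% and 4.38%. With only the 6 libraries, the shares at 0 hours were 6.62% and 14.8% against 6.21% and 9.65%. With 1 library left out they ranged from 33 to 88, 47 to 165 and 27 to 87. Adjusted p-values under 0.05 appeared with only the 6 libraries compared (1 row at 0 hours), with rows summed per gene (1 gene at 6 hours) and without VILI 6 hours replicate 1 (2, 38 and 1 rows). In that order these were 0.221%, 0.267%, 0.442%, 8.39% and 0.221% of the lincRNAs. The shares over the whole table were 0.981%, 0.702%, 1.04%, 5.6% and 0.41%.

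The replicate block gave 56, 71 and 32 rows and an adjusted p under 0.05 for 0 of them, where that share over all rows was 0.0107%, 0.00804% and 0%. At 0 hours 4.64% of lincRNA rows were higher and 7.73% lower, against 4.33% and 5.46% of all rows. At 6 hours it was 3.09% and 12.6% against 5.29% and 6.32%, and between the times 1.32% and 5.74% against 3.32% and 3.19%. Same-numbered libraries of different groups did not deviate together (correlations from -0.159 to 0.026 over rows). Deviations from a mean of 3 libraries are tied to each other, so this cannot show whether the numbers pair the mice.

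Of 66 named differences with P under 0.05, 64 kept it with a pseudocount of 0.01, 60 with 1, 61 without a filter, 58 with median-centred libraries, 51 with only the 6 libraries compared, 52 with the replicate block, 61 without a trend and 59 with rows summed per gene, all in the same direction apart from Malat1 at 6 hours, which turned to 0.0829 with its rows summed; row 1 is listed at 0 in control replicate 2. Summing rows also ended the calls of Malat1, Jpx and Pvt1 at 0 hours, Snhg12 at 6 hours, and Gm14005 and Pvt1 between the times. Median-centring ended those of Malat1, Neat1, Jpx, Gm26853 and 4833403J16Rik at 0 hours, Malat1 and A630023P12Rik at 6 hours and Gm20707 between the times. With only the 6 libraries compared, the calls lost were Malat1, Neat1 and Mir142hg at 0 hours, Snhg12, Platr22, Gm40639, Gm20186, 2310040G24Rik, A630023P12Rik and D830026I12Rik at 6 hours, and Gm14005, Gm39321, Gm26601, Gm20707 and A630023P12Rik between the times. With the replicate block they were Malat1, Neat1, Mir142hg, Dubr and Gm26853 at 0 hours, Snhg12, Platr22, Gm39321, 2310040G24Rik, Gm26601 and A630023P12Rik at 6 hours, and Gm39321, Gm26601 and Gm20707 between the times. With 3 libraries a group and FPKM alone, differences in rows near 0.1 FPKM cannot be resolved.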

Other observations

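Among the other lincRNA genes that RefSeq lists as microRNA hosts, some rows differed between groups at an unadjusted P under 0.05 (limma). E130102H24Rik, the host of miR-101a, had 10.5, 10.4 and 13.1 FPKM in the control libraries, 11.8, 16.4 and 11.7 in VILI 0 hours and 8.35, 10.3 and 8.54 in VILI 6 hours. Each VILI 6 hours library lay below each of the other 6, and the log2 fold change from 0 to 6 hours was -0.53 ± 0.17 (adjusted p = 0.573). Row 2 of 2900076A07Rik, the host of miR-1839, had 2.97, 3.53 and 2.87 FPKM in the control libraries and 2.11, 1.92 and 2.31 in VILI 6 hours, without overlap, at a log2 fold change of -0.54 ± 0.21 (adjusted p = 0.341). Its row 3 was at -0.79 ± 0.34 (adjusted p = 0.375) with groups that overlapped, since VILI 6 hours replicate 1 had 4.14 FPKM against 1.68 and 2.11 in the other libraries of its group. Gm27028, the host of miR-30c, had 11.5, 18.96 and 20.1 FPKM in VILI 6 hours, on both sides of the control range of 13.6 to 19.1, and passed in no comparison. The mature microRNAs themselves were not measured in these libraries.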
